A study of Mus musculus with 4 samples.

Results

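Glutathione, the NRF2 transcription factor and the peroxide-removing enzymes form the main thiol-based defence of the cell against oxidants. The 40 genes described here were listed by symbol. All 40 were found among the 55536 genes of the deposited table, and all 40 were among the 12838 genes abundant enough to be tested. RNA was measured in the stromal vascular fraction (the cells of fat other than adipocytes) of inguinal white fat from wild-type male mice at postnatal day 21. There were 4 libraries, each a pool of 3 mice: ObF1 given 1,3BD, LnF1 given 1,3BD, ObF1 given water and LnF1 given water. ObF1 and LnF1 are the labels' names for offspring in a series on obesity of the parents, and 1,3BD is the labels' name for the drink. Each combination had 1 library, so no group has a replicate, and differences between animals of 1 pool cannot be seen.

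NRF2, encoded by Nfe2l2, is held in the cytoplasm and marked for degradation by KEAP1. When oxidants or electrophiles modify KEAP1, NRF2 enters the nucleus and drives genes that carry antioxidant response elements, among them those for glutathione synthesis, thioredoxin reductase and NADPH supply. Glutathione peroxidases and peroxiredoxins then reduce peroxides, glutathione transferases couple glutathione to reactive compounds, and NADPH regenerates the reduced thiols. In fat, where stored lipid is prone to peroxidation, the same enzymes limit lipid peroxides in progenitors and adipocytes.

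Levels are scaled CPM, read counts put on a common library size with the scaling factors held in the deposited values. Between 24586827 and 26000090 reads per library could be recovered, and 1 read was worth 0.0359 to 0.0434 CPM. The lowest count of any member in a library was 30 reads, for Mgst3 in ObF1 1,3BD, giving 1.13 CPM with an exact Clopper-Pearson 95% interval of 0.759 to 1.61 CPM. For Gclc in the same library the interval was 628 to 648 CPM. These intervals cover counting error only. Differences were fitted by limma over all 4 libraries in a model with drink and parents, and are given on the log2(CPM + 0.0796) scale with their standard error (SE) and a p-value adjusted over all 12838 genes, called at 0.05. The fit has 1 residual degree of freedom, which measures how far the drink difference in ObF1 departs from that in LnF1.

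The progenitor marker Pdgfra had 412 and 281 CPM in ObF1 and LnF1 with 1,3BD, against 236 and 243 CPM with water, and was not called (limma adjusted p = 0.0742). In the same list Pdgfrb fell 3.996-fold and Thy1 3.32-fold, and both were called. Markers of several other cell types were near 0, although the name stromal vascular fraction, taken from the labels, also covers blood and vessel cells. White blood cell markers summed to 8.70 and 4.59 CPM in the ObF1 and LnF1 1,3BD libraries, against 15.0 and 21.5 CPM in the ObF1 and LnF1 water libraries, with Ptprc never above 0.150 CPM. Of the same 12 markers, Cd3e, Cd3g and Cd79b had 0 reads in every library. Endothelial markers summed to 6.52 and 5.63 CPM in 1,3BD and 33.4 and 30.7 CPM in water. Fibroblast and progenitor markers summed to 12853 and 17536 CPM in 1,3BD and 43995 and 40704 CPM in water, and 7 smooth muscle and myofibroblast markers to 226 and 148 CPM, against 9786 and 9054 CPM in water. Most of the fibroblast sum came from the collagen genes Col1a1, Col1a2 and Col3a1. Mitochondrially encoded genes held 5.80% and 2.78% of reads in the ObF1 and LnF1 1,3BD libraries, against 1.30% and 1.13% in the water libraries. Markers of mature adipocytes summed to 2.40 and 5.56 CPM in the ObF1 and LnF1 1,3BD libraries, against 0.0869 and 0.467 CPM in water. Of these, Adipoq had 0 reads. Plin1, the only one abundant enough to be tested, was called higher, with 49 and 142 reads in 1,3BD against 1 and 2 in water. Markers of red blood and epithelial cells summed to less than 1 CPM. The 6 skeletal muscle markers summed to 3.41 and 2.55 CPM in 1,3BD and 63.3 and 87.6 CPM in water, mostly from Acta1. These shifts moved with the drink, but some single markers set LnF1 water apart. Dcn had 328 CPM there, against 81.1, 68.7 and 63.9 CPM in ObF1 1,3BD, LnF1 1,3BD and ObF1 water. Lum had 154 reads there, against 2, 5 and 16, and C1qa 32 reads, against 0, 3 and 4. Others were higher in ObF1 water, such as Cdh5 at 7.21 CPM against 2.80 CPM in LnF1 water. The part of all these differences in the results below was not tested. In such bulk samples, fewer cells of a type and less RNA per cell cannot be told apart.

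The first question was how the defence genes differed between 1,3BD and water. Of 5 genes that make and recycle glutathione, 4 were higher with 1,3BD, led by Gclc at 20.5-fold, and Gss was not called, while all 5 glutathione peroxidases measured were lower, led by Gpx1 at 5.45-fold. Catalase, mitochondrial superoxide dismutase and 2 NADPH-producing enzymes of the pentose phosphate pathway were higher. Peroxiredoxins and glutathione transferases were split. Over the 40 genes, 15 rose, 14 fell and 11 were not called. Over all genes tested, 19.2% rose and 24.8% fell, 44.0% in all, so many genes of any kind moved with the drink. The median difference of the 40 was -0.25 on the log2 scale, against -0.06 over all genes tested. Scaling by library totals instead of the deposited factors moves the median of all genes to 0.19 and gives 3665 genes higher and 2283 lower, where the deposited factors give 2466 and 3189. Under that scaling 15 of the 40 rose and 11 fell. Both 1,3BD libraries lay above both water libraries in 17 of the 40, against 33.8% of all genes tested, and below them in 17, against 38.2%. Taken in ObF1 alone, 14 of the 40 were at least 1 higher on the log2 scale and 7 at least 1 lower, against 13.1% and 19.7% of all genes tested. In LnF1 alone the counts were 10 and 12, against 10.7% and 16.4%.

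**Figure D1:**
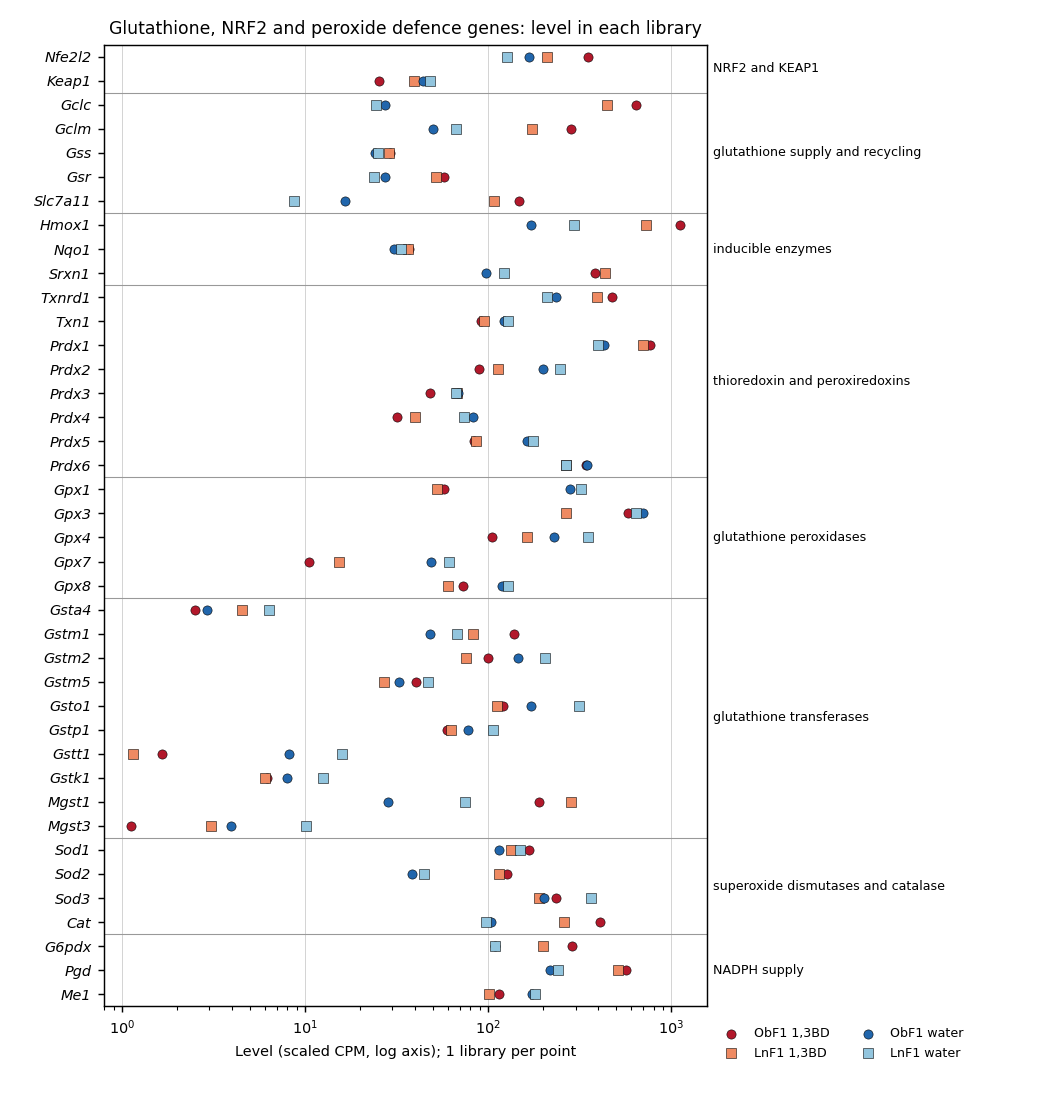
Level of each of the 40 genes in each library, in scaled CPM on a log axis, grouped by role; circles are ObF1, squares are LnF1, red and orange are 1,3BD and blues are water, with 1 library per point. The 1,3BD points lie to the right of the water points for Gclc, Gclm, Slc7a11, Hmox1, Srxn1, Mgst1, Sod2 and Cat, and to the left for Gpx1, Gpx7 and Gstt1.

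NRF2 itself and its repressor KEAP1 were the first group. Nfe2l2 (chromosome 2) stood at 352 CPM in ObF1 1,3BD and 210 CPM in LnF1 1,3BD, against 166 CPM in ObF1 water and 126 CPM in LnF1 water. Both 1,3BD libraries lay above both water libraries, and the gene rose 1.87-fold (log2 0.91, SE 0.20, limma adjusted p = 0.00390). Keap1 had 25.5 and 39.4 CPM in ObF1 and LnF1 with 1,3BD, against 44.1 and 47.8 CPM with water. Both 1,3BD libraries lay below both water libraries, but the difference of -0.53 (SE 0.23, limma adjusted p = 0.0740) was not called. Keap1 shares 510 exon bases with an antisense gene that averaged 0.87 CPM over the libraries. The use of strand in counting is not given in the sources used here.

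Glutathione is built in 2 steps, from cysteine that enters the cell largely as cystine. Gclc (chromosome 9, 77754535 to 77794485, plus strand, mm10) encodes the catalytic subunit of glutamate-cysteine ligase, the rate-limiting enzyme. Its level was 638 CPM in ObF1 1,3BD and 443 CPM in LnF1 1,3BD, against 27.2 CPM in ObF1 water and 24.5 CPM in LnF1 water. The groups were far apart, and the fitted log2 difference was 4.36 (SE 0.20; limma adjusted p = 1.19e-07). Gclm, the modifier subunit of the same enzyme, stood at 284 and 174 CPM in ObF1 and LnF1 with 1,3BD and at 50.05 and 66.4 CPM with water. It rose by less, 3.84-fold (log2 1.94, SE 0.26, limma adjusted p = 0.000402). Gclm shares 296 exon bases with an antisense gene that averaged 1.79 CPM. It also shares 244 exon bases with a processed pseudogene on the same strand that averaged 0 CPM. How reads in these bases were assigned is not given in the sources used here. The balance of the subunits differed between drinks. Per kilobase of exon, the level of Gclc was 3.76 and 4.26 times that of Gclm in ObF1 and LnF1 with 1,3BD, against 0.909 and 0.617 times with water. Gss, which adds glycine in the second step, had 29.0 and 28.7 CPM with 1,3BD and 24.1 and 25.0 CPM with water in ObF1 and LnF1, and was not called (log2 difference 0.23, SE 0.22, limma adjusted p = 0.421). It shares 395 exon bases with Acss2 on the other strand, which averaged 20.4 CPM.

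Slc7a11 (chromosome 3) encodes the cystine importer. It had 147 and 108 CPM in ObF1 and LnF1 with 1,3BD, against 16.5 and 8.74 CPM with water. The gap between drinks was wide in both parental groups, 3.15 in ObF1 and 3.61 in LnF1 on the log2 scale (fitted difference 3.38, SE 0.22, limma adjusted p = 1.41e-06). Gsr, glutathione reductase, returns oxidised glutathione to its reduced form with NADPH. It stood at 57.6 and 51.8 CPM with 1,3BD and at 27.3 and 23.7 CPM with water in ObF1 and LnF1, a 2.14-fold rise (limma adjusted p = 0.00188). Thus 4 of the 5 genes of glutathione supply and recycling rose and Gss was not called. Their summed level per kilobase was 251 and 177 in ObF1 and LnF1 with 1,3BD, against 30.4 and 30.6 with water.

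Among 3 other genes widely used as readouts of NRF2, the responses were unequal. Hmox1, heme oxygenase, which frees iron from heme, reached 1113 CPM in ObF1 1,3BD and 731 CPM in LnF1 1,3BD, against 172 CPM in ObF1 water and 295 CPM in LnF1 water. It rose 3.996-fold (limma adjusted p = 0.00118), by 2.69 in ObF1 and 1.31 in LnF1 on the log2 scale. Srxn1, sulfiredoxin, repairs over-oxidised peroxiredoxins. It had 381 and 434 CPM with 1,3BD and 97.7 and 121 CPM with water in ObF1 and LnF1, and rose 3.73-fold (limma adjusted p = 2.88e-05). Nqo1, a quinone reductase, stood at 37.1 and 36.4 CPM with 1,3BD and at 30.7 and 33.4 CPM with water. The 4 values lay close together, and the difference of 0.20 (SE 0.22, limma adjusted p = 0.475) was not called.

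**Figure D2:**
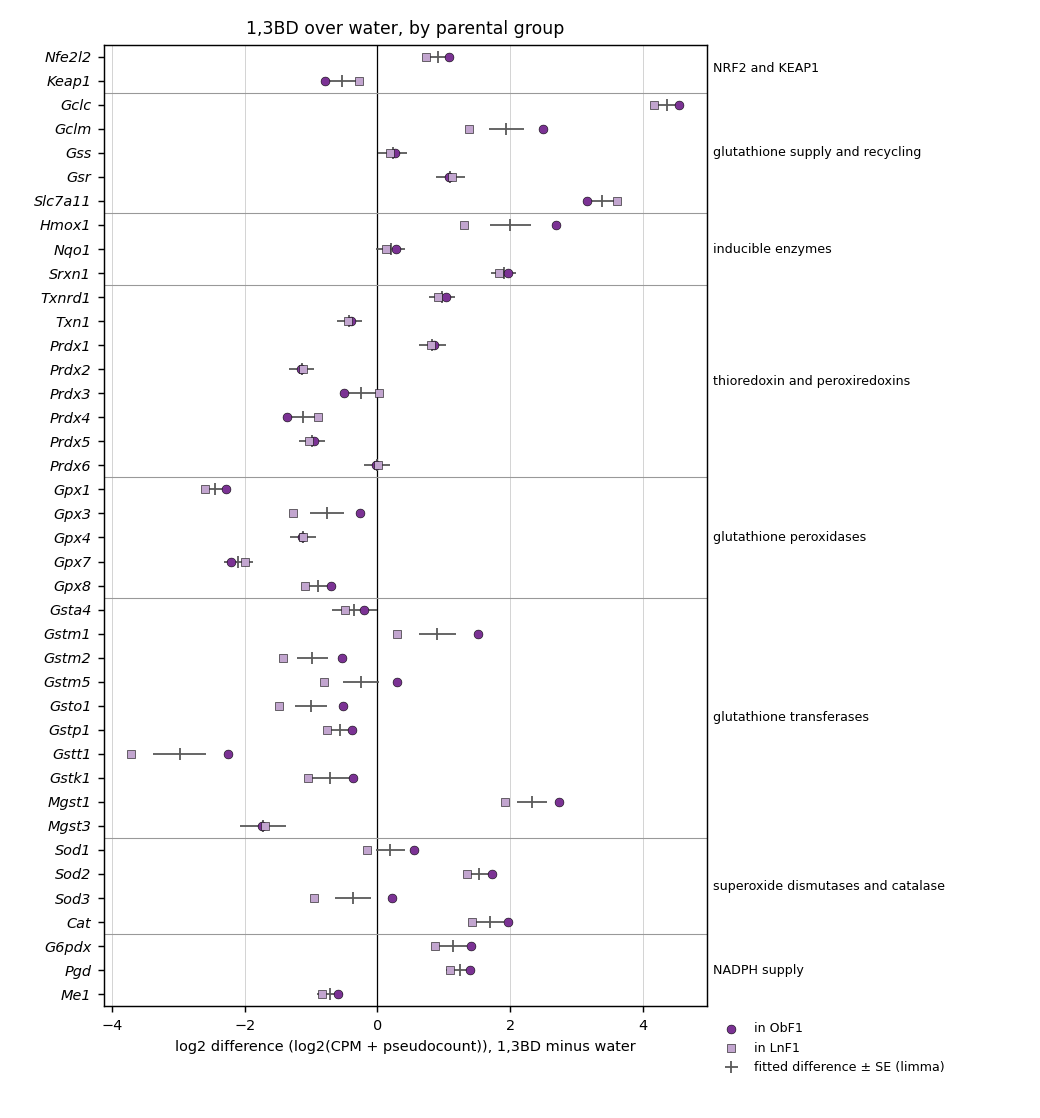
Log2 difference of 1,3BD over water for each gene, on the log2(CPM + 0.0796) scale; circles are the difference in ObF1, squares that in LnF1, and the tick with its bar is the fitted difference with its SE (limma). Gclc and Slc7a11 lie farthest to the right, all 5 glutathione peroxidases lie to the left of 0, and the circle lies to the right of the square in 13 of the 15 genes that rose.

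Thioredoxin and the peroxiredoxins showed no common direction. Txnrd1, the selenium-containing reductase that keeps thioredoxin reduced, had 476 and 395 CPM with 1,3BD and 234 and 209 CPM with water in ObF1 and LnF1, a 1.96-fold rise (log2 0.97, SE 0.20, limma adjusted p = 0.00249). Txn1, its substrate, had 91.8 and 94.8 CPM with 1,3BD and 122 and 129 CPM with water and was not called (limma adjusted p = 0.0922). Prdx1, the main cytosolic peroxiredoxin of many cells, stood at 769 and 698 CPM with 1,3BD, against 428 and 399 CPM with water. It was the 1 peroxiredoxin of 6 that rose (log2 difference 0.83, SE 0.21, limma adjusted p = 0.00772).

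Prdx2, also cytosolic, had 89.4 and 113 CPM in ObF1 and LnF1 with 1,3BD and 199 and 247 CPM with water. It fell 2.20-fold (log2 -1.14, SE 0.19, limma adjusted p = 0.000797), with no overlap between drinks. However, its exons overlap Junb by 173 bases and Rnaseh2a by 177 bases on the other strand. Those genes averaged 84.9 and 13.7 CPM. Prdx4 of the endoplasmic reticulum fell 2.19-fold and Prdx5, found in mitochondria and peroxisomes, fell 1.98-fold. Prdx5 shares 409 exon bases with Trmt112 on the other strand, which averaged 20.6 CPM. Prdx3, the mitochondrial form, had 48.0 and 67.5 CPM with 1,3BD and 68.3 and 66.4 CPM with water, so the drinks overlapped. Prdx6, which also acts on phospholipid peroxides, had 340.2 and 265 CPM with 1,3BD and 344 and 265 CPM with water. Prdx3 and Prdx6 were not called, and the sign of both turns with library totals. The summed level of these 8 genes per kilobase was 594 and 572 in ObF1 and LnF1 with 1,3BD, against 588 and 581 with water.

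The glutathione peroxidases were the 1 group in which every measured member fell. Gpx1 (chromosome 9, 108338903 to 108340343, plus strand), the abundant cytosolic form, stood at 57.5 CPM in ObF1 1,3BD and 52.5 CPM in LnF1 1,3BD, against 280.4 CPM in ObF1 water and 320.4 CPM in LnF1 water. The drinks did not overlap, and the fall was 5.45-fold (log2 -2.45, SE 0.20, limma adjusted p = 5.48e-06). Gpx4, which reduces lipid peroxides within membranes and restrains ferroptosis, had 104 and 162 CPM with 1,3BD, against 229 and 352 CPM with water. It fell by 1.13 (SE 0.19, limma adjusted p = 0.000896), and by nearly the same amount in ObF1 (-1.14) and LnF1 (-1.12). A processed copy named after Gpx4 averaged 1.73 CPM.

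Gpx3, the secreted plasma form, had 584 CPM in ObF1 1,3BD and 266 CPM in LnF1 1,3BD, against 700 CPM in ObF1 water and 643 CPM in LnF1 water. LnF1 1,3BD stood apart from the other 3 libraries. The fitted fall of 0.77 (SE 0.26, limma adjusted p = 0.0327) was not called with library totals (limma adjusted p = 0.121) or by edgeR (adjusted p = 0.0545). Gpx7 and Gpx8 carry cysteine in place of selenocysteine and work in the endoplasmic reticulum. Gpx7 had 10.5 and 15.2 CPM in ObF1 and LnF1 with 1,3BD, against 48.7 and 60.9 CPM with water, a 4.28-fold fall (limma adjusted p = 3.94e-05). Gpx8 fell 1.86-fold (limma adjusted p = 0.00450). Members with and without selenocysteine therefore both fell. The summed level of the 5 genes per kilobase was 499.9 and 347 in ObF1 and LnF1 with 1,3BD, against 864 and 951 with water, and Gpx3 held 64.4% and 42.4% of it with 1,3BD and 44.7% and 37.3% with water.

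Glutathione transferases divided into 2 that rose, 5 that fell and 3 that were not called. Mgst1 (chromosome 6), a membrane-bound transferase that also reduces lipid peroxides, had 190.0 CPM in ObF1 1,3BD and 282 CPM in LnF1 1,3BD, against 28.5 CPM in ObF1 water and 74.6 CPM in LnF1 water. It rose by 2.33 (SE 0.23, limma adjusted p = 2.53e-05). Mgst3, of the same membrane family, had 1.13 and 3.05 CPM with 1,3BD and 3.95 and 10.1 CPM with water and fell by 1.72 (SE 0.35, limma adjusted p = 0.00241). These relatives thus moved in opposite directions in ObF1 and in LnF1 alike.

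Gstt1, a theta-class enzyme, fell most among the 40, to 1.65 and 1.15 CPM in ObF1 and LnF1 with 1,3BD, against 8.17 and 16.0 CPM with water (log2 difference -2.98, SE 0.40, limma adjusted p = 0.000210). Gstm1, a mu-class enzyme, stood at 138 and 82.4 CPM with 1,3BD and at 48.1 and 67.5 CPM with water. Its rise was 1.52 in ObF1 and 0.29 in LnF1 on the log2 scale (fitted 0.90, SE 0.28, limma adjusted p = 0.0262). Its neighbour Gstm2 on chromosome 3 had 99.8 and 75.8 CPM with 1,3BD and 145 and 204 CPM with water, and fell 1.98-fold (limma adjusted p = 0.00674). Gsto1 fell 1.99-fold. Gstp1 fell 1.49-fold, a call lost with library totals (limma adjusted p = 0.219), edgeR (adjusted p = 0.0681) and DESeq2 (adjusted p = 0.0999). Gstm5, Gsta4 and Gstk1 were not called. Mu-class and pi-class genes resemble each other closely, so reads may be split among relatives and their values are uncertain.

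The superoxide dismutases turn superoxide into hydrogen peroxide, and catalase breaks that down in peroxisomes. Sod2, the mitochondrial form, had 126 and 114 CPM in ObF1 and LnF1 with 1,3BD, against 38.2 and 44.9 CPM with water. It rose 2.90-fold (limma adjusted p = 0.000185). Sod1, the cytosolic form, had 166 and 133 CPM with 1,3BD and 114 and 149 CPM with water, and Sod3, the extracellular form, had 236 and 188 CPM with 1,3BD and 202 and 366 CPM with water. In both genes the drinks overlapped and no call was made. Cat (chromosome 2) stood at 407 CPM in ObF1 1,3BD and 261 CPM in LnF1 1,3BD, against 104 and 97.3 CPM in the ObF1 and LnF1 water libraries, a rise of 1.70 (SE 0.21, limma adjusted p = 0.000105). With Gpx1 lower and Cat higher, the level of Gpx1 per kilobase was 0.256 and 0.365 times that of Cat in ObF1 and LnF1 with 1,3BD, against 4.89 and 5.97 times with water.

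Genes for NADPH-producing enzymes did not move together. G6pdx, the first enzyme of the pentose phosphate pathway, had 288 and 199 CPM with 1,3BD and 108 and 110 CPM with water in ObF1 and LnF1, a 2.20-fold rise (limma adjusted p = 0.00136). It shares 418 exon bases with Ikbkg on the other strand, which averaged 65.1 CPM. Pgd, the second NADPH-producing enzyme of that pathway, had 569 and 511 CPM with 1,3BD and 217 and 240 CPM with water and rose 2.36-fold (limma adjusted p = 0.000694). Me1, cytosolic malic enzyme, had 115 and 101 CPM with 1,3BD and 173 and 180.3 CPM with water, and fell 1.64-fold (limma adjusted p = 0.0119), a call that ended with library totals (limma adjusted p = 0.0704).

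**Figure D3:**
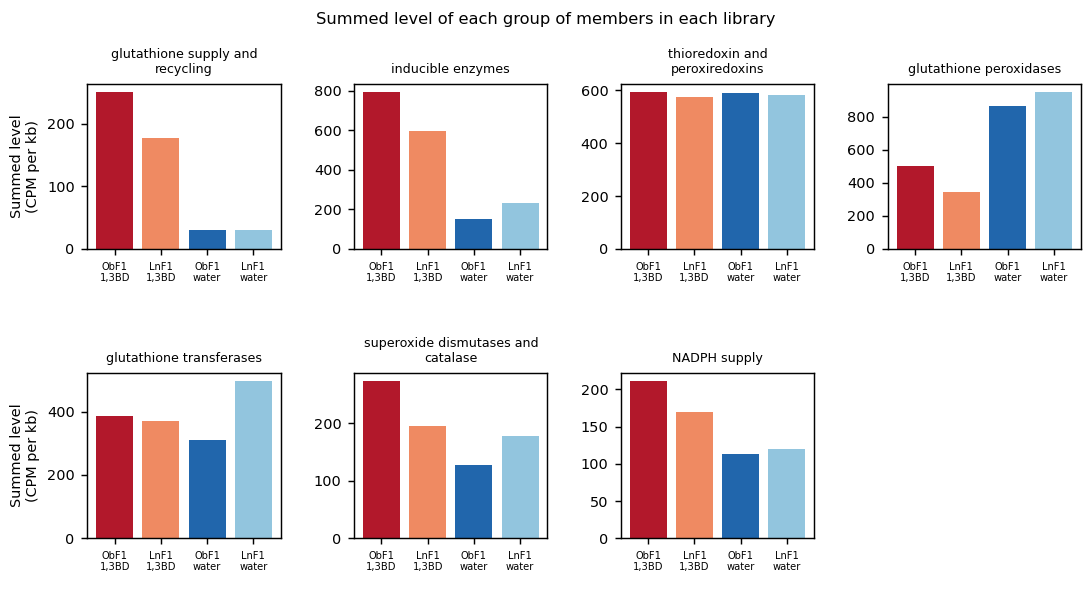
Summed level of each group of members in each library, in CPM per kilobase of exon, with 1 library per bar and axes from 0. Glutathione supply and recycling stands at 251 and 177 in 1,3BD (ObF1, LnF1) against 30.4 and 30.6 in water, glutathione peroxidases at 499.9 and 347 against 864 and 951, and thioredoxin and peroxiredoxins between 572 and 594 in all 4 libraries.

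The order of levels per kilobase of exon changed with the drink. Hmox1 was the highest of the 40 in both 1,3BD libraries, at 635 in ObF1 and 417 in LnF1, and ranked 7 in ObF1 water and 4 in LnF1 water. Gpx3 was the highest in both water libraries, at 386 in ObF1 and 355 in LnF1. Gclc ranked 4 and 6 in ObF1 and LnF1 with 1,3BD, against 33 and 36 with water. Gpx1 ranked 22 and 24 with 1,3BD, against 2 in each water library. At the lower end, Keap1, Slc7a11, Gss, Gsta4, Gstt1, Gstk1 and Mgst3 stayed at or below 10.6 in every library. The order depends on the length used, which takes in all annotated exons of a gene, whether or not they were used here. It was 13922 bases for Slc7a11, which had 147 CPM in ObF1 1,3BD, and 1097 bases for Mgst3, which had 1.13 CPM there. With 1 library per group, neighbours in this order cannot be separated by a spread between replicates.

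Of the 29 calls, 25 were kept in all 9 alternatives that used the 4 libraries, and none turned direction in any alternative. Fits with 1 library left out also had to drop the parental term. They called 9 higher and 4 lower without LnF1 water, 10 and 9 without ObF1 water, 11 and 10 without ObF1 1,3BD, and 14 and 10 without LnF1 1,3BD. The 11 genes called in every one of these fits were Gclc, Gclm, Slc7a11, Hmox1, Srxn1, Sod2, Cat and Pgd among those that rose, and Gpx1, Gpx7 and Gstt1 among those that fell. The other 18 calls were each lost when at least 1 library was left out. Without LnF1 water the calls lost were those of Nfe2l2, Gsr, Txnrd1, Prdx1, Prdx2, Prdx5, Gpx3, Gpx4, Gpx8, Gstm1, Gstm2, Gsto1, Gstp1, Mgst3, G6pdx and Me1. Without ObF1 water they were those of Nfe2l2, Txnrd1, Prdx1, Prdx4, Gpx3, Gpx8, Gstm1, Gstp1, G6pdx and Me1. Without ObF1 1,3BD they were those of Nfe2l2, Prdx1, Gpx4, Gstm1, Gsto1, Gstp1, Mgst1 and Mgst3, and without LnF1 1,3BD those of Gpx3, Gstm2, Gsto1, Gstp1, Mgst1 and Me1. Keap1, not called with all libraries, was called lower without LnF1 1,3BD (limma adjusted p = 0.0250). Over all genes, the same fits called between 668 and 1926 higher and between 1232 and 2731 lower.

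Promoter sequence was examined because many of the genes that rose are known NRF2 targets. Windows from 250 bases before to 50 bases after each RefSeq start site (GRCm38.p6) were available for 34 of the 40 genes, and not for Gclc, Gsr, Hmox1, Prdx6, Gsta4 and Sod3. They were searched on both strands for TGACNNNGC, the core of the antioxidant response element. The core was found in 11 of 43 windows of the members, 25.6%, against 12.4% of all 32851 windows. Counted by gene, 8 of the 12 with a window that rose held it, against 1 of 14 that fell and 2 of 8 that were not called. Of all genes tested, 9781 of 12838 had a window and 17.0% of these held the core, with 17.7% among those that rose, 16.0% among those that fell and 17.2% among those not called. Fewer than 80% of the genes tested had a window, so a comparison of the members with them is void and none is drawn. The members were listed by pathway, with known NRF2 targets among them. Nothing is therefore read from their split by call or from their share of windows. The matches are shown to let their letters be compared, each with 10 bases on either side, in the direction of the gene and with the core in capitals, the 8 genes that rose first, then Me1, which fell, then the 2 that were not called.
Nfe2l2: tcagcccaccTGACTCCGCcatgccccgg
Gclm: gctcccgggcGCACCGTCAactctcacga
Txnrd1: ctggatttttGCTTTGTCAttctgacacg
Srxn1: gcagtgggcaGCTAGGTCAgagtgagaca
Prdx1: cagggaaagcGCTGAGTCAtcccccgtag
Mgst1: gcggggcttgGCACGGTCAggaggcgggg
G6pdx: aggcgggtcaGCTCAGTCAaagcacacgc
Pgd: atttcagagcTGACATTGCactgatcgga
Me1: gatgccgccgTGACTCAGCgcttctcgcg
Gstm5: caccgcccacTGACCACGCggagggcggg
Sod1: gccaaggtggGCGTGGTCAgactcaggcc

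Where the capitals read GC first and TCA last, the core lies on the strand opposite to the gene. In Prdx1 and Me1 the same letters, TGACTCAGC on the strand of the core, also hold the AP-1 site TGAGTCA on the other strand, and these 2 genes moved in opposite directions. In Prdx1 the core began 133 bases before the start site, and the 250 bases before that site (chr4:116685349-116685598, plus strand) are given to show its setting.
Prdx1: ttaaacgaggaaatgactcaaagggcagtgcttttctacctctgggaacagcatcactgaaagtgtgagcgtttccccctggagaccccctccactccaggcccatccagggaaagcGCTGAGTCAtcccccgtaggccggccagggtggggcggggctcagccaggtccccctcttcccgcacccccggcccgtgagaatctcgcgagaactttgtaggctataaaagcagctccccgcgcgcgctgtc
In Srxn1 and Pgd the core began 29 and 4 bases after the start site. A match is a description of letters and not evidence of binding, and a window without one says nothing of elements farther away.

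Wider lists around the pathway were counted in the same test, in which 19.2% of all genes rose and 24.8% fell. Several lists lie near these shares, and nothing particular to a list is read from its count. Among genes that partner, repress or degrade NRF2, 2 of 13 rose and 2 fell. Gsk3b, a kinase that marks NRF2 for degradation, rose by 0.78 and Cul3, the scaffold of the KEAP1 ubiquitin ligase, by 0.73, while Maff, a small MAF partner, fell by 1.23 and Rbx1, the RING subunit of that ligase, by 0.68. Of 21 further NRF2 target genes, 8 rose and 5 fell. The multidrug exporter gene Abcc4 (2.34) and Ugdh, which makes UDP-glucuronic acid (1.68), rose, and the reductases Ptgr1 (-1.51) and Akr1b3 (-1.17) and the transketolase gene Tkt (-0.83) fell. Fth1, the ferritin heavy chain that stores the iron released by heme oxygenase, had 6427 and 4097 CPM in ObF1 and LnF1 with 1,3BD, against 848 and 1304 CPM with water (log2 difference 2.29, SE 0.31, limma adjusted p = 0.000323), and shares sequence with processed copies.

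Genes of glutathione turnover and transport fell in 8 of 15 and rose in 4. Ggt5 and Anpep, cell-surface peptidases, fell by 2.68 and 2.48, and Oplah, which opens 5-oxoproline, by 1.47. Dpep1, a dipeptidase that splits cysteinylglycine, had 293 and 169 CPM in ObF1 and LnF1 with 1,3BD, against 29.2 and 35.6 CPM with water, and rose by 2.78 (SE 0.26, limma adjusted p = 3.21e-05). Ggct, which releases 5-oxoproline from gamma-glutamyl amino acids, rose by 1.64, and Slc25a40, a relative of the mitochondrial glutathione importer, by 0.95. Slc25a39, the gene of that importer, had 77.8 and 98.0 CPM in ObF1 and LnF1 with 1,3BD, against 139 and 161 CPM with water. It fell by 0.77 (limma adjusted p = 0.00744). Of 11 further transferases and peroxidases tested, 2 rose, with the prostaglandin synthase gene Ptges at 1.39, and 4 fell, with Gstt3 at -0.81. Gstm3, Gstp3, Gpx5 and Gpx6 of the same list had 0 reads in every library.

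Of 12 genes of cysteine and methionine supply, 1 rose and 3 fell. Mat2a, which makes S-adenosylmethionine, rose by 1.009, and Mpst (-1.17), Ahcy (-1.08) and Ethe1 (-0.85) of sulfur metabolism fell. Of 19 further thioredoxin and glutaredoxin genes, 2 rose and 8 fell. Glrx, glutaredoxin (0.93), and Sesn1 (0.73) rose, and the methionine sulfoxide reductases Msrb1 (-1.94) and Msra (-1.76) and Txnip, the inhibitor of thioredoxin (-1.34), fell. Of 19 further genes for selenoproteins and for making them, 4 rose and 7 fell. Selenop, the selenium transport protein, had 604 and 437 CPM in ObF1 and LnF1 with 1,3BD, against 55.9 and 119 CPM with water (log2 difference 2.65, SE 0.36, limma adjusted p = 0.00182). Selenoi (0.79) and Sepsecs, which completes selenocysteine on its tRNA (0.68), rose, and Selenom (-2.08), Selenoh (-1.79) and Selenow (-1.23) fell.

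Further NADPH sources rose in 4 of 16 and fell in 7. Idh1, the cytosolic isocitrate dehydrogenase (1.36), Rpe (0.76) and the mitochondrial NAD kinase gene Nadk2 (0.73) rose, whereas Aldh1l1 of folate metabolism (-2.52), the mitochondrial Idh2 (-1.49) and Pgls of the pentose phosphate pathway (-1.07) fell. Genes for sources of superoxide and peroxide rose in 4 of 10 and fell in 5. Xdh, xanthine dehydrogenase, stood at 736 and 804 CPM in ObF1 and LnF1 with 1,3BD, against 84.0 and 120.2 CPM with water, and rose by 2.94 (SE 0.20, limma adjusted p = 2.26e-06). The oxidases of disulfide formation, Ero1l (1.86) and Ero1lb (1.86), rose. Cyba, a subunit of NADPH oxidases (-2.21), Maob (-1.96) and Nox4 (-1.52) fell.

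**Figure D4:**
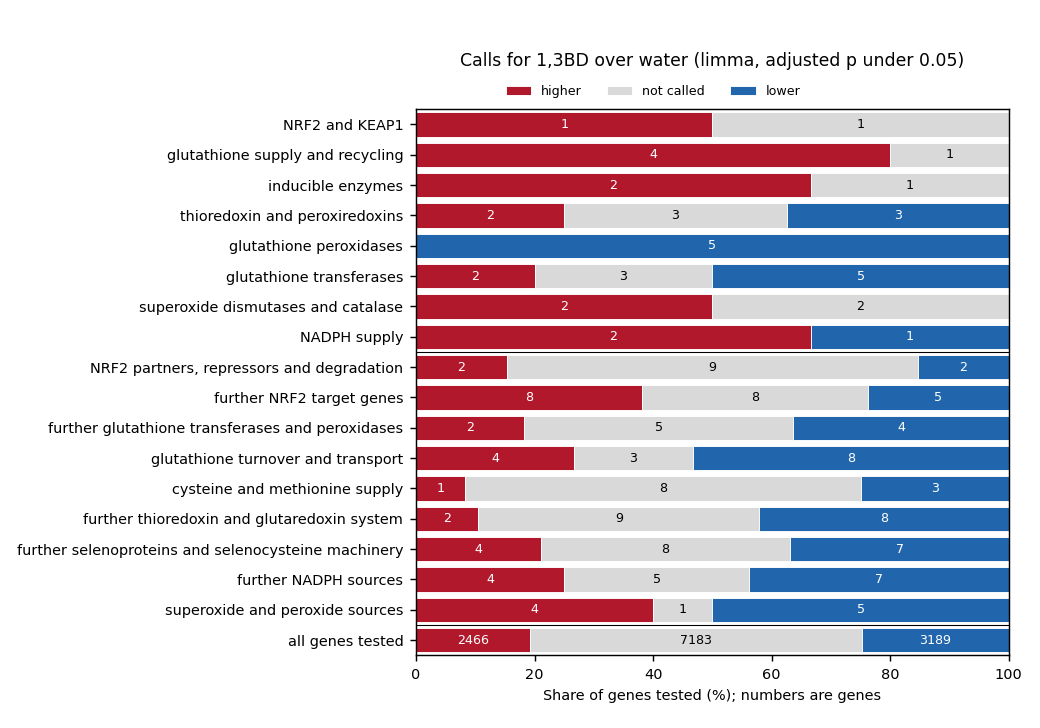
Share of genes tested that were higher, not called or lower with 1,3BD over water (limma, adjusted p under 0.05), for the groups of members (above the first line), the wider pathway lists and all 12838 genes tested; numbers in the bars are genes. All 5 glutathione peroxidases are lower and 4 of 5 genes of glutathione supply and recycling are higher.

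The second question was how ObF1 differed from LnF1. Of the 40 genes, 0 rose and 0 fell by limma, against 0.195% and 0.101% of all genes tested, or 0.296% in all. At an unadjusted p under 0.05 there were 7, among 1392 of all genes tested. edgeR called 0 of the 40, and DESeq2 called 1 lower, Mgst1. The median fitted difference of the 40 was -0.05 on the log2 scale, against 0.01 over all genes tested.

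Mgst3 and Mgst1 had the lowest fitted parental differences. Mgst3 stood at 1.13 and 3.95 CPM in ObF1 with 1,3BD and water, against 3.05 and 10.1 CPM in LnF1 with 1,3BD and water, and the fitted difference was -1.35 (SE 0.35; limma adjusted p = 0.166). Mgst1 was lower in ObF1 in both drinks, by 0.57 in 1,3BD and 1.39 in water (fitted -0.98, SE 0.23, limma adjusted p = 0.134). Without ObF1 water, in a fit with no drink term, its fitted value was 0.39, a value that takes in part of the drink difference. Gsta4, which couples glutathione to the lipid aldehyde 4-hydroxynonenal, had 2.51 and 2.91 CPM in ObF1 with 1,3BD and water, against 4.52 and 6.37 CPM in LnF1. It was the 1 member whose ObF1 libraries both lay below both LnF1 libraries (limma adjusted p = 0.329), and Prdx6 was the 1 member whose ObF1 libraries both lay above. Over all genes tested, 8.02% lay below and 8.44% above in this way.

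Nfe2l2 was higher in ObF1 by 0.75 in 1,3BD and 0.40 in water (limma adjusted p = 0.320), and Slc7a11 by 0.45 and 0.91 (limma adjusted p = 0.284). Gpx4 was lower in ObF1 by 0.64 in 1,3BD and 0.62 in water (limma adjusted p = 0.250). Gpx3 differed by 1.13 in 1,3BD and 0.12 in water (limma adjusted p = 0.407). None of these values was called.

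The sign of the parental difference was counted in each drink. In 1,3BD, ObF1 was above LnF1 in 27 of the 40 genes, against 51.5% of all genes tested. In water it was above in 11 of the 40, against 50.1% of all genes tested. These differences share no library. At least 1 on the log2 scale, Gpx3 was higher and Mgst3 lower in 1,3BD, against 3.07% and 4.27% of all genes tested, and in water 0 were higher and 3 lower (Gsta4, Mgst1 and Mgst3), against 3.04% and 2.80%. The medians were 0.15 in 1,3BD and -0.17 in water. In 18 of the 40 ObF1 was above in 1,3BD and below in water, and in 2 the reverse. Over all 12838 genes tested, 2735 (21.3%) had the first pattern and 2551 the reverse, so a change of sign in either direction was itself common. With library totals the counts were 23 of 40 in 1,3BD and 9 of 40 in water, where 41.3% and 39.4% of all genes tested lay above.

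**Figure D5:**
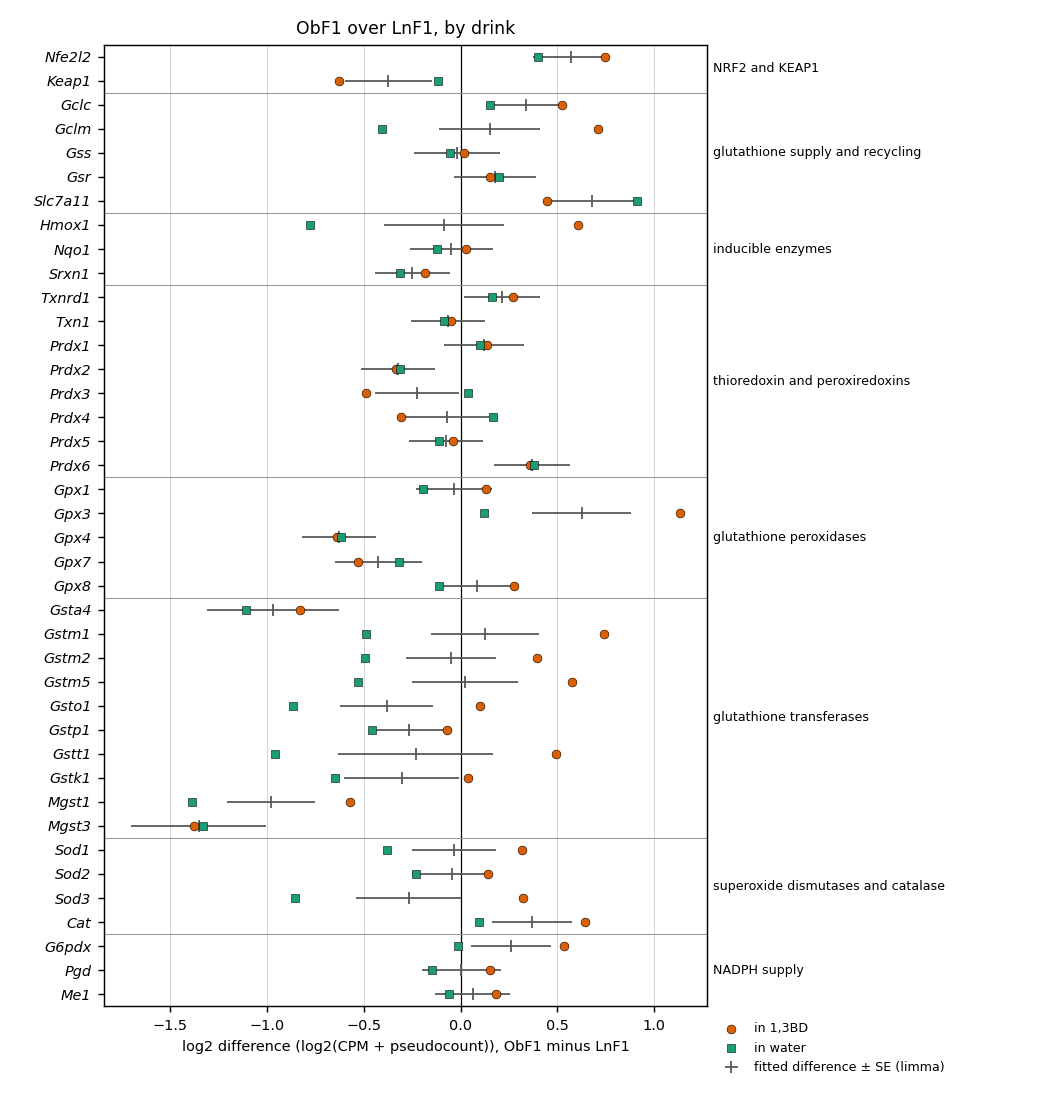
Log2 difference of ObF1 over LnF1 for each gene, on the log2(CPM + 0.0796) scale; circles are the difference in 1,3BD, squares that in water, and the tick with its bar is the fitted difference with its SE (limma). Circles lie above 0 in 27 genes and squares in 11, and Mgst3, Gsta4 and Gpx4 lie to the left of 0 in both drinks.

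The same values, arranged by drink, give the size of the response to 1,3BD in each parental group. Of the 15 genes that rose, 13 had the larger log2 difference in ObF1, all but Slc7a11 and Gsr. Over all 2466 genes that rose, 57.3% did. The excess in ObF1 had a median of 0.37 over the 15 and 0.09 over the 2466. The count of 13 of 15 was the same with library totals and with RLE size factors. Those scalings shift all genes by nearly the same small amount, so the count could hardly change and nothing is drawn from this. The median excess over all genes tested was -0.018, and -0.030 and -0.037 with library totals and RLE size factors. Hmox1, Gstm1 and Gclm had the widest gaps among the 15, at 2.69 in ObF1 against 1.31 in LnF1 for Hmox1, 1.52 against 0.29 for Gstm1 and 2.50 against 1.38 for Gclm. Of the 14 that fell, the fall was smaller in ObF1 in 9, or 64.3%, against 38.7% of all 3189 genes that fell. With 1 library per combination, the difference between these responses could not be tested, and the 4 libraries enter every such value.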

How the data were processed

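Per the labels' protocols, TRIzol was used for RNA and a KAPA mRNA kit for libraries. The submitters' processing notes list DESeq2, edgeR and the mm10 build but give them no role. Which aligner, counter and annotation were used is not given in the sources used here. The deposited values are a scaled signal per gene: dividing a column by its smallest value gave whole numbers (100% within a relative tolerance of 1e-06), so whole reads were recovered. Columns that name no drink were matched to water.

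Genes at 1 CPM or more in at least 2 libraries entered limma 3.58.1 (R 4.3.3), with mean-variance trend and robust moderation, on log2(CPM + 0.0796), a pseudocount worth 2 reads, adjusted by Benjamini-Hochberg. edgeR 4.0.16 and DESeq2 1.42.0 were run on recovered reads as alternatives, with other filters, scalings, pseudocounts and left-out libraries. On recovered reads edgeR called 2649 genes higher and 2884 lower for drink. Levels per kilobase use all GENCODE exons of a gene. Limma p-values rest on how far the drink difference in ObF1 departs from that in LnF1, moderated over all genes tested. No spread between pools of a group was measured, and the p-values cover these pools only.

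The members and lists were chosen with earlier results of these data known. All 40 members are named, with up to 3 genes per direction from each wider list that passed for drink at a mean CPM of at least 5, ranked by the smaller of their ObF1 and LnF1 differences. Other genes were named after their values were seen.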

Additional observations from a re-analysis of the deposited data

Results flagged for a closer look

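In 2 of the 40 genes the parental difference took opposite signs in the 2 drinks at 0.5 or more on the log2 scale in each. Hmox1 differed between ObF1 and LnF1 by 0.61 in 1,3BD and by -0.78 in water. Gstm5 differed by 0.58 in 1,3BD and by -0.53 in water. Its exons overlap an antisense gene, which averaged 8.51 CPM, by 178 bases. Each value compares 1 library with 1 other, so the difference between drinks was not tested.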

How the results depend on the processing

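Pairing by replicate was not possible because each combination of parents and drink has 1 library and the labels give no replicate numbers. Through its parental term, the main fit did compare the drinks within each parental group. For drink, the count of genes called ranged over left-out libraries from 668 to 1926 higher (main 2466) and 1232 to 2731 lower (main 3189), and that of members from 9 to 14 higher and 4 to 10 lower. These fits also lose the second factor, so they use fewer samples and 1 term fewer. For parents, genes called numbered 25 higher and 13 lower in the main fit, 69 and 48 with DESeq2, 10 and 5 when a mean of 5 CPM was required, 196 and 156 without a filter, 8 and 5 with a pseudocount of 1 CPM, 0 and 0 without the drink term (39 at an unadjusted p under 0.05), 16 higher with library totals, and 0 higher and 0 to 2 lower with a library left out; the cause was not tested. Members called lower for parents were 1 with DESeq2 and 2 without a filter (Mgst1 and Mgst3). Uncalled drink differences that changed sign were those of Prdx3 (0.0078 with library totals) and Prdx6 (0.24 with library totals, 0.0080 with RLE, 0.050 with edgeR, 0.041 with DESeq2), and over left-out libraries Gsta4 (-0.90 to 0.21), Gstm5 (-0.54 to 0.037), Prdx3 (-0.49 to 0.0025), Prdx6 (-0.20 to 0.18) and Sod3 (-0.80 to 0.060). Parental differences changed sign with a library left out for Slc7a11 (-1.13 to 2.49), Gpx3 (-0.0095 to 1.26) and Mgst1 (-2.35 to 0.39), and in 35 of the 40 genes in all. Without a drink term, each such fit sets a library of a single drink against libraries of both drinks. The parental values then take in part of the drink difference, so these changes of sign cannot show whether the parental differences are stable. Counting error was widest for the lowest members, such as Gstt1 in LnF1 1,3BD, with 32 reads and an exact 95% interval of 0.785 to 1.62 CPM.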

Other observations

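The following genes were chosen after their values were seen. Ftl1, the ferritin light chain, had 500.0 CPM in ObF1 1,3BD and 1859 CPM in LnF1 1,3BD, against 1146 CPM in ObF1 water and 1519 CPM in LnF1 water. ObF1 1,3BD was the lowest library for Ftl1 and the highest for the heavy chain gene Fth1, at 6427 CPM. Ftl1 shares sequence with processed copies, and its drink difference was not called (-0.45, limma adjusted p = 0.297). Nnt, the mitochondrial transhydrogenase that makes NADPH from NADH, had 0.337 and 0.323 CPM in ObF1 and LnF1 with 1,3BD, against 0.304 and 0.297 CPM with water, a few reads in each library. Dio2, a selenium-containing deiodinase that activates thyroid hormone, had 5.70 and 3.08 CPM in ObF1 and LnF1 with 1,3BD, against 0.261 and 0.0849 CPM with water. The water values rest on 6 and 2 reads, against 152 and 86 reads with 1,3BD, so no fold is given.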
